A study of Mus musculus with 7 samples.

Results

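Netrin-1 and its receptors were followed through the cell types of the embryonic mouse nose. The 7 genes were chosen by name, whatever their values: the ligand gene Ntn1, the receptor genes Dcc and Neo1, and the Unc5 receptor family, Unc5a, Unc5b, Unc5c and Unc5d. They are 7 of the 29763 genes that all libraries listed under a unique symbol. Whole noses were taken at embryonic day 14.5, dissociated, frozen and profiled by droplet single-cell RNA sequencing. The series title places the study at the terminal nerve, Gnrh1 neurons and olfactory development. Wild-type (WT) libraries came from CD1 IGS mice that carried no named allele, and 5 were deposited. A further 2 libraries came from a nose labelled ProKR2iCre/R26tdTomato, from B6;SJL mice with the alleles Prokr2em1(cre)Cfe and Gt(ROSA)26Sortm14(CAG-tdTomato)Hze/J. In it, Cre recombinase made under the control of Prokr2 turns on a tdTomato reporter at the Rosa26 locus, so the reporter marks cells with present or past Prokr2 activity. The labels' protocols tell of a sorted and an unsorted set from that nose, but the sample labels do not say which library is which, and they are called ProKR2iCre library 1 and library 2 here. WT and ProKR2iCre noses differ in strain, and no test was made between them; their values are set side by side.

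Netrin-1 is a secreted protein related to laminins that guides growing axons and migrating cells. DCC and neogenin, the product of Neo1, are related single-pass receptors best known for attraction towards netrin, and neogenin also binds the repulsive guidance molecules. Unc5 receptors, alone or together with DCC, are known for repulsion by netrin, bind FLRT proteins as well, and belong with DCC among the dependence receptors, which can promote cell death when ligand is lacking. In the nose, netrin and DCC are known for guiding the Gnrh1 neurons on their way to the forebrain, and UNC5B is best known for vessel guidance.

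Cells with at least 500 detected genes and at most 10% mitochondrial UMIs (unique molecular identifiers, 1 per captured transcript) were kept, 28565 of them from WT. WT replicates 3 and 4 shared 7386 of their 7396 and 7408 barcodes, whereas no other pair shared more than 34, and replicate 3 was left out, which leaves 4 WT captures (replicates 1, 2, 4 and 5). These held 44599430 to 89800259 deposited UMIs, with a median of 5126.5 to 11371 per kept cell. Cells were placed in 17 classes by how many of a class's marker genes they showed, none of them a netrin gene, and 12 classes had at least 10 cells in at least 3 WT captures. As a check on the labels, genes left out of the gates were read across the 12 classes: the intended class ranked first in 74 of 88 such values and first or second in 86. The olfactory neuron class of replicate 5 held 11 cells and the terminal nerve class at most 7 cells in any WT capture. No label ties a WT library to a nose, so p-values measure only the spread between these captures, which may be technical.

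Levels are given as CPM, the UMIs of a gene per 1000000 UMIs of the same class in the same capture. They compare 1 gene between classes; levels of different genes were not ranked against each other. Differences are log2 fold changes ± standard error (SE) from the quasi-likelihood test of edgeR on UMIs summed per capture and class, with the capture as a blocking term and p-values adjusted over the 12588 genes tested by the method of Benjamini and Hochberg. A difference was called at an adjusted p under 0.05. Of the 7 genes, 6 passed the filter on low counts, and Unc5a did not.

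The libraries differed in the levels of genes with long introns, and most of the netrin genes have long introns. In mesenchyme, the class with the most cells, genes in the top decile of summed intron length stood a median of 1.64, 1.98 and 2.26 log2 units higher in WT replicates 2, 4 and 5 than in replicate 1, and genes in the lowest decile stood at −0.02, −0.32 and −0.19. Dcc, with 1084 kb of introns, stood 4.85, 4.99 and 6.19 log2 units higher. Unc5d, with 563.7 kb, stood 4.13, 4.28 and 5.17 higher, and Unc5c, with 350.6 kb, 3.41, 3.77 and 3.70 higher. Shorter genes moved less: Ntn1 (185.2 kb) by 1.97, 1.86 and 2.72, Neo1 (153.0 kb) by 1.36, 1.51 and 1.81, and Unc5b (62.73 kb) by 0.25, 1.17 and 0.51. Between the ProKR2iCre libraries the same measure, library 2 over library 1, was 4.32 for Unc5d, 3.61 for Dcc, 3.15 for Unc5c, 1.73 for Neo1, 1.72 for Ntn1 and 1.52 for Unc5b, beside a median of 1.89 for the top decile. Per the file headers, Cell Ranger 6.0.1 counted replicate 1, 7.0.0 the other WT libraries and 6.1.2 both ProKR2iCre libraries. The part of the counting in these differences was not tested. The tests therefore set class against class within a capture, while values of single captures and their ranges are descriptions that hold this shift. The share of UMIs in the top decile also differed between classes of a capture: in WT replicates 1, 2, 4 and 5 it was 2.36%, 7.001%, 8.97% and 10.89% in mesenchyme, 3.15%, 7.22%, 9.18% and 12.09% in olfactory neurons, 1.76%, 4.84%, 5.65% and 6.48% in progenitors and 1.00%, 2.59%, 3.55% and 3.45% in macrophages. Its part in the differences between classes was not tested.

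**Figure D1:**
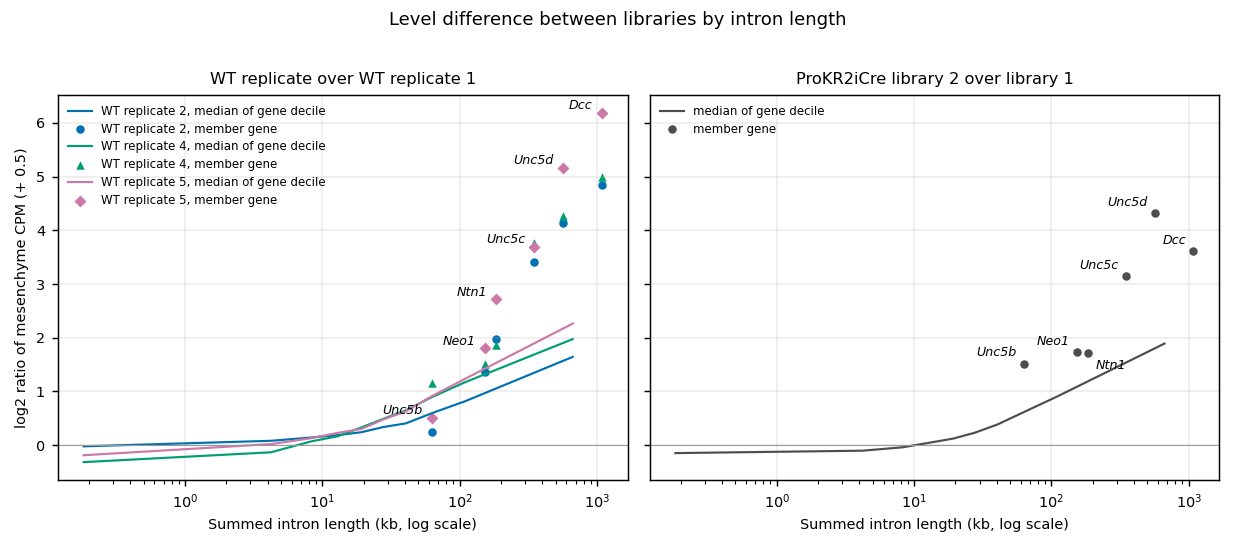
Log2 ratio of mesenchyme CPM (plus 0.5) between libraries against summed intron length in kb on a log axis, for WT replicates 2, 4 and 5 over replicate 1 (left) and ProKR2iCre library 2 over library 1 (right); lines join the medians of gene deciles and points are the netrin genes. Dcc, Unc5d and Unc5c, with the longest introns, lie above the lines in both panels, with Dcc at 4.85 to 6.19 on the left.

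Differences are set against mesenchyme, the class with the most cells in every capture. All 6 genes tested were called in sustentacular cells (1 higher, 5 lower), pericytes (1 higher, 5 lower), endothelium (1 higher, 5 lower) and macrophages (0 higher, 6 lower). Over all 12588 genes, 47.4%, 22%, 48% and 59.2% were called in these comparisons. In olfactory neurons 1 gene was higher and 4 lower (57.9% of all genes called), in olfactory progenitors 2 higher and 3 lower (49.8%), and in glia 0 higher and 5 lower (31.5%). Simple and basal epithelium each had 1 higher and 4 lower (51.5% and 47% of all genes). Cartilage had 1 higher and 3 lower (23.6%), and bone 1 higher and 2 lower (23.7%). The higher genes differed by class: Ntn1 in sustentacular cells, simple epithelium and progenitors, Dcc in olfactory neurons, Unc5b in endothelium, pericytes, bone, progenitors and basal epithelium, and Unc5c in cartilage.

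**Figure D2:**
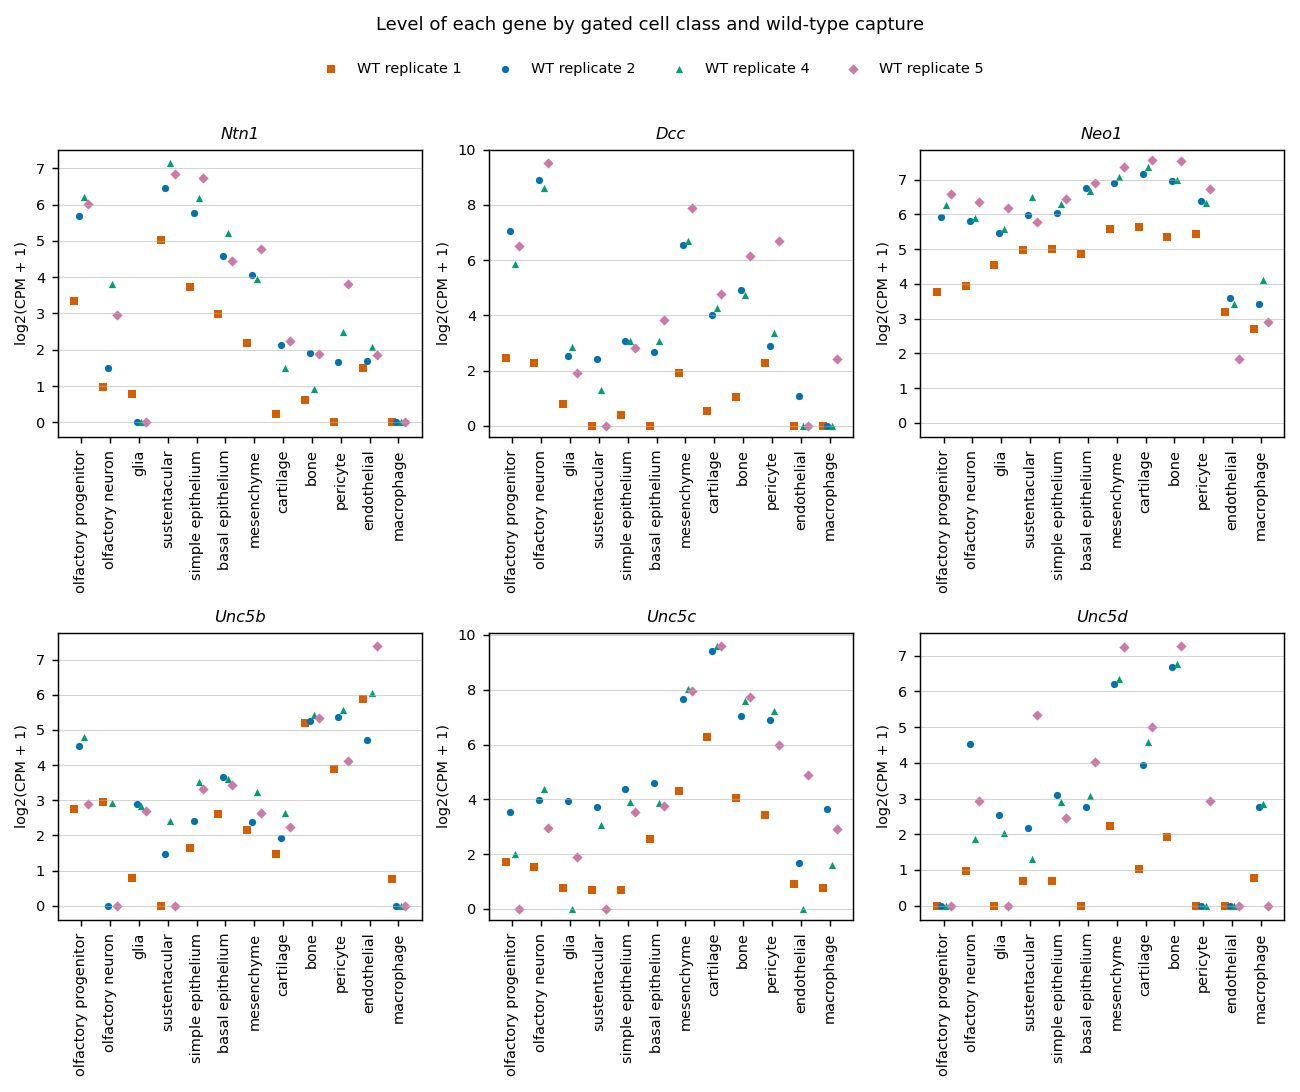
Level of Ntn1, Dcc, Neo1, Unc5b, Unc5c and Unc5d as log2(CPM + 1) in 12 cell classes, with 1 point per WT capture. Ntn1 is highest in sustentacular cells in each capture, and replicate 1 lies below the other captures for Dcc, Unc5c and Unc5d in most classes where these genes were counted.

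**Figure D3:**
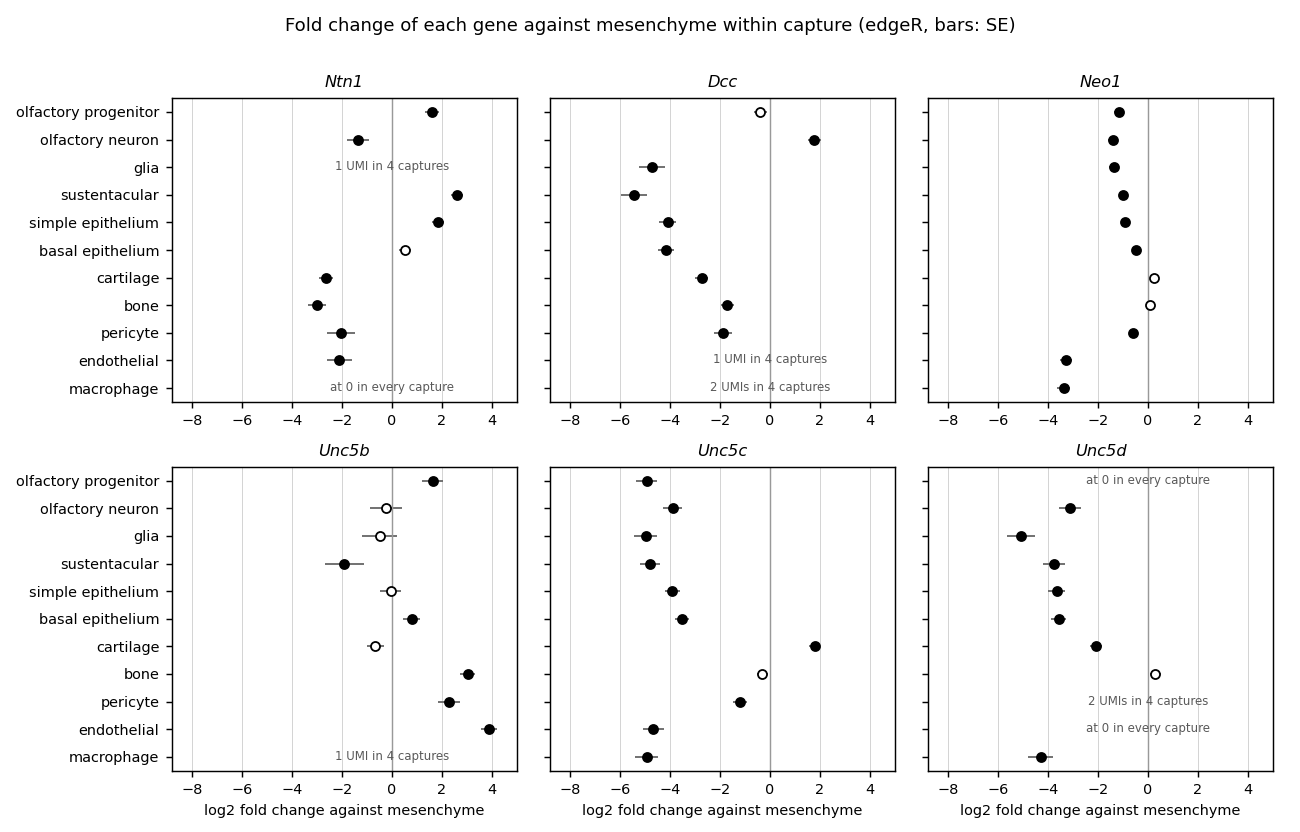
Log2 fold change of each gene against mesenchyme from edgeR with the capture as a block, in 11 classes; bars are SE, filled points were called at an adjusted p under 0.05 and open points were not. Classes with 0 to 3 UMIs of the gene over 4 captures carry that count in place of a point, and Unc5b has its highest point in endothelium (3.89) and Unc5c in cartilage (1.79).

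The ligand gene Ntn1 (ENSMUSG00000020902, chr11:68209364-68400823, minus strand, GENCODE M21 on GRCm38) was highest in the epithelial lining of the nose. In sustentacular cells, the supporting cells of the olfactory epithelium, it stood at 31.5, 86.9, 141.4 and 113.6 CPM in WT replicates 1, 2, 4 and 5 (93.3 ± 46.9, mean ± SD, n = 4). Simple epithelium, the single-layered lining, had 12.2, 53.4, 71.6 and 105.0 CPM. Mesenchyme had 3.59, 15.5, 14.4 and 26.4 CPM. Sustentacular cells were thus first of the 12 classes in every capture, and no sustentacular value overlapped a mesenchyme value. Most of these cells stood at the minimum of the sustentacular gate, 2 markers: 149, 142, 65 and 16 cells that passed it were at the minimum and 39, 5, 2 and 0 above it. Within a capture, the sustentacular level was 8.76, 5.60, 9.83 and 4.31 times the mesenchymal one. The difference was 2.60 ± 0.23 in log2 (adjusted p = 1.9e-12) and that of simple epithelium 1.85 ± 0.22 (adjusted p = 2.7e-09). After thinning to 2000 UMIs the cells that had as many, and leaving out the shallower ones (0, 2, 0 and 1 of the sustentacular cells), 5.04%, 20.2%, 36.6% and 30.8% of sustentacular cells kept an Ntn1 UMI, against 25.9%, 55.2%, 70.7% and 57.1% of all of them unthinned. Macrophages, immune cells read here for free RNA, held an Ntn1 UMI in 0 of 248 cells, an upper limit of 1.21%. Of the 224 deep enough to thin, 0 did, an upper limit of 1.34%. The median depth of unthinned cells was 7696 to 14121.5 UMIs in macrophages and 9340.5 to 11461 in sustentacular cells. Such intervals and limits cover counting error only.

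Within the olfactory lineage Ntn1 was counted in progenitors and little in neurons. Olfactory progenitors, the dividing and early differentiating cells that give rise to the neurons, had 9.09, 50.0, 73.4 and 64.1 CPM, from 8, 61, 49 and 10 UMIs. Olfactory neurons had 0.96, 1.85, 13.1 and 6.69 CPM, from 1, 1, 10 and 1 UMIs. Progenitors exceeded neurons in every capture, and the difference was 2.96 ± 0.44 in log2 (adjusted p = 6.6e-07). Against mesenchyme, progenitors were higher by 1.61 ± 0.26 (adjusted p = 2.1e-06), a difference of 1.13 (adjusted p = 0.056) when cells had to show 1 more marker of their class. Olfactory neurons lay below mesenchyme, at −1.35 ± 0.45 (adjusted p = 0.0097), which changed to −1.12 (adjusted p = 0.051) without replicate 1, to −0.92 (adjusted p = 0.14) without replicate 2 and to −2.59 without replicate 4.

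Basal epithelium, the stratified layer marked by keratins, had 6.88, 23.2, 35.8 and 20.9 CPM of Ntn1. It lay below simple epithelium in every capture, with a difference of −1.33 ± 0.24 in log2 (adjusted p = 5.7e-05). Against mesenchyme its difference of 0.52 ± 0.23 missed the threshold (adjusted p = 0.058), but it passed without replicate 1 (adjusted p = 0.044) and, at 0.87, without replicate 5 (adjusted p = 0.0085). The skeletal and vascular classes lay lower. Cartilage lay at −2.63 ± 0.28 against mesenchyme (adjusted p = 4.9e-10), bone at −2.99 ± 0.36 (adjusted p = 1.4e-08) and endothelium, the vessel lining, at −2.10 ± 0.50 (adjusted p = 0.00054). Cartilage lay at −3.29 once likely doublets were removed. Pericytes, the mural cells of small vessels, lay at −2.02 ± 0.56 (adjusted p = 0.0075), a call that was lost without replicate 1 (−1.56, adjusted p = 0.083) and without replicate 2 (−1.64, adjusted p = 0.11), while without replicate 5 the value was −2.89. Glia held 1 Ntn1 UMI over the 4 captures. Macrophages held 0 Ntn1 UMIs of 2902721, where the mesenchymal level of each capture would give 32.3, so their level was at least 10.8-fold lower with a floor of 3 counts over the 4 captures.

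The receptor gene Dcc (ENSMUSG00000060534) was highest in olfactory neurons in 3 of 4 captures among the 12 classes tested. Olfactory neurons, which send their axons to the olfactory bulb, had 3.86, 478.4, 395.5 and 736.4 CPM (403.5 ± 303.4, mean ± SD, n = 4), from 4, 259, 302 and 110 UMIs. Mesenchyme had 2.74, 93.0, 102.6 and 236.6 CPM. Replicate 1 stood far below the other captures in both classes. Of the neuron classes with too few cells to test, 3 other neurons of replicate 2 stood at 1495 CPM (95% Poisson interval 985.2 to 2175, from 27 UMIs) and the single terminal nerve cell of replicate 4 at 1476 CPM (1159 to 1853, from 74 UMIs), above the olfactory neurons of those captures. The 23 other neurons of replicate 1 stood at 17.6 CPM (3.63 to 51.4, from 3 UMIs), and its 7 terminal nerve cells held 0 Dcc UMIs. Other cells lay below the olfactory neurons of their capture. The terminal nerve cell of replicate 2 stood at 354.8 CPM (73.2 to 1037, from 3 UMIs). The single other neuron of replicate 5 stood at 103.5 CPM (12.5 to 373.9, from 2 UMIs). The 4 other neurons of replicate 4 held 0 Dcc UMIs, which allows up to 79.3 CPM. In replicate 5 the neuronal UMIs came from 5 of 11 cells, and 1 cell held 45 of them. Within a capture, neurons stood at 1.41, 5.15, 3.86 and 3.11 times mesenchyme, and the difference was 1.79 ± 0.24 in log2 (adjusted p = 2e-08). Thinned to 2000 UMIs, 0.877%, 45.1%, 32.4% and 50.0% of olfactory neurons and 0.567%, 10.97%, 12.2% and 19.6% of mesenchymal cells kept a Dcc UMI, against 3.42%, 69.9%, 61.0% and 45.5% and 2.28%, 18.4%, 20.3% and 34.3% of all such cells unthinned. Left out as too shallow were 3, 1, 0 and 1 neurons and 22, 111, 38 and 20 mesenchymal cells, so the shares rest on slightly different cells. Of macrophages, 0 of 224 thinned and 2 of 248 unthinned cells had 1.

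The standing of Dcc in progenitors depended on the gate. Olfactory progenitors had 4.55, 131.2, 56.9 and 89.8 CPM. These values lay below those of olfactory neurons in replicates 2, 4 and 5 and above in replicate 1, where both classes held 4 UMIs. The difference from neurons was −2.17 ± 0.29 in log2 (adjusted p = 3.5e-08), but 0.31 ± 0.31 (adjusted p = 0.51) when cells had to show 1 more marker of their class. Against mesenchyme it was −0.38 ± 0.27 (adjusted p = 0.25), −1.00 (adjusted p = 0.026) without replicate 2, 0.05 (adjusted p = 0.93) without replicate 5 and 1.89 (adjusted p = 4.6e-07) with 1 more marker. No direction between progenitors and neurons is therefore given for Dcc.

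Olfactory neurons were split by a UMI of Omp, the gene of the olfactory marker protein of mature neurons. Those with such a UMI had less Dcc in WT replicate 2 and ProKR2iCre library 2, but no single direction held over the libraries. In WT replicate 2, 8 neurons with an Omp UMI stood at 210.9 CPM (95% Poisson interval 118.0 to 347.9) and the 75 without at 518.8 (455.7 to 588.1). ProKR2iCre library 2, with 65 neurons on each side, had 255.6 (229.0 to 284.5) with and 408.0 (371.0 to 447.7) without Omp. These are cells of single libraries and were not tested, and the intervals cover counting error only. Elsewhere the counts were small and went both ways. In WT replicate 4 the single neuron with an Omp UMI stood at 729.5 CPM (293.3 to 1503, from 7 UMIs) and the 104 without at 391.3. In ProKR2iCre library 1 the 3 with an Omp UMI stood at 35.9 (4.35 to 129.8, from 2 UMIs) and the 13 without at 25.6. In WT replicates 1 and 5 the 24 and 2 neurons with an Omp UMI held 0 Dcc UMIs, and those without held 4 and 110.

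In the skeletal and vascular classes Dcc was called lower than in mesenchyme. Bone had 1.05, 29.3, 25.6 and 70.5 CPM, a difference of −1.70 ± 0.26 (adjusted p = 1.4e-06), and cartilage 0.44, 15.2, 18.1 and 26.4 CPM, a difference of −2.73 ± 0.26 (adjusted p = 1.7e-11) that became −3.75 once likely doublets were removed. Both lay below mesenchyme in each of the 4 captures. Pericytes had 3.81, 6.42, 9.33 and 101.7 CPM, above mesenchyme in replicate 1 and below it in the other captures, and a difference of −1.89 ± 0.37 (adjusted p = 0.00011), which was −1.29 without replicate 2 and −2.78 without replicate 5. In endothelium a single Dcc UMI was counted over the 4 captures, and in macrophages 2, both from replicate 5. Simple epithelium (−4.10 ± 0.35) and basal epithelium (−4.15 ± 0.32) were lower, as were sustentacular cells (−5.44 ± 0.52) and glia (−4.72 ± 0.52); basal epithelium stood at −3.05 with 1 more marker, sustentacular cells at −6.89 without replicate 2 and −4.83 with stricter cell filters, and glia at −4.0 without replicate 5.

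Neo1 (ENSMUSG00000032340, chr9:58874687-59036441, minus strand) did not differ beyond the threshold between mesenchyme and the skeletal classes in the main analysis. Cartilage had 48.5, 143.1, 164.5 and 190.1 CPM (136.5 ± 61.8, mean ± SD, n = 4), bone 40.1, 123.0, 126.7 and 183.4 CPM, and mesenchyme 46.5, 119.9, 133.2 and 163.8 CPM. These ranges overlapped almost wholly, but they hold the shift between captures. Within a capture, cartilage lay above mesenchyme in each of the 4 WT captures. It also did in ProKR2iCre libraries 1 (89.3 against 57.1 CPM) and 2 (221.0 against 190.7). Bone lay above mesenchyme in WT replicates 2 and 5 and below it in replicates 1 and 4. Against mesenchyme, cartilage differed by 0.26 ± 0.14 (adjusted p = 0.20; 0.32 and 0.046 without replicate 1) and bone by 0.07 ± 0.14 (adjusted p = 0.78). The olfactory classes and glia were lower: olfactory neurons lay at −1.41 ± 0.20 (adjusted p = 3.7e-08), glia at −1.37 ± 0.19 (adjusted p = 1.7e-07), progenitors at −1.17 ± 0.18 (adjusted p = 8e-07) and sustentacular cells at −1.00 ± 0.17 (adjusted p = 5.1e-06). Simple epithelium lay at −0.90 ± 0.15 (adjusted p = 3.3e-06), basal epithelium at −0.50 ± 0.15 (adjusted p = 0.0042) and pericytes at −0.59 ± 0.18 (adjusted p = 0.016). The call in pericytes was lost without replicate 2 (adjusted p = 0.22), without replicate 4 (0.14) and without replicate 5 (0.11).

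Endothelium and macrophages stood apart for Neo1. Endothelium had 8.14, 11.02, 9.75 and 2.61 CPM and macrophages 5.56, 9.74, 16.4 and 6.51 CPM, whereas glia, the next class up, had 22.3, 43.2, 46.5 and 71.7 CPM. Among the 6 genes tested and 12 classes ordered by mean level, glia and macrophages for Neo1 were the single neighbours whose ranges over captures did not overlap. The differences from mesenchyme were −3.28 ± 0.24 in endothelium (adjusted p = 1.9e-15) and −3.38 ± 0.26 in macrophages (adjusted p = 3.3e-15). Of the 2 vascular classes, endothelium lay below pericytes, with a difference of −2.69 ± 0.29 (adjusted p = 2.7e-10). After thinning, 10 of 224 macrophages held a Neo1 UMI.

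Unc5b (ENSMUSG00000020099, chr10:60762593-60831581, minus strand) was a gene of vessels and bone. Endothelium had 57.9, 25.4, 65.0 and 166.9 CPM (78.8 ± 61.2, mean ± SD, n = 4), from 128, 23, 20 and 64 UMIs. Bone had 35.6, 37.0, 42.2 and 39.1 CPM (38.5 ± 2.88) and mesenchyme 3.49, 4.24, 8.44 and 5.18 CPM. Neither endothelial nor bone values overlapped those of mesenchyme. Endothelium lay above bone and pericytes in replicates 1, 4 and 5. In replicate 2 its 25.4 CPM lay below the 37.0 of bone and the 40.7 of pericytes. In ProKR2iCre library 1 endothelium stood at 4.89 times mesenchyme and bone at 6.88 times. Within a capture, endothelium stood at 16.6, 5.98, 7.71 and 32.2 times mesenchyme and bone at 10.2, 8.73, 5.00 and 7.54 times. The differences were 3.89 ± 0.33 in endothelium (adjusted p = 1.7e-13) and 3.04 ± 0.31 in bone (adjusted p = 1.4e-10). In replicate 5 the endothelial class held 18 cells, of which 7 had an Unc5b UMI and 1 held 15. Thinned, 12.5%, 2.13%, 13.0% and 16.7% of endothelial cells and 6.53%, 6.77%, 7.20% and 9.47% of bone cells kept an Unc5b UMI (39.3%, 25.5%, 25.0% and 38.9%, and 34.7%, 26.6%, 26.8% and 40.2%, unthinned), with 4, 0, 1 and 0 endothelial and 0, 1, 0 and 0 bone cells too shallow to thin. No thinned macrophage of 224 did, and 1 of 248 unthinned.

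Pericytes had 13.7, 40.7, 46.7 and 16.4 CPM of Unc5b, and lay above mesenchyme by 2.28 ± 0.43 (adjusted p = 8.3e-05). Endothelium exceeded pericytes by 1.61 ± 0.41 (adjusted p = 0.0017), yet the ratio within a capture was 4.22, 0.62, 1.39 and 10.2. That call was lost without replicate 1 (1.25, adjusted p = 0.051) and without replicate 5 (1.01, adjusted p = 0.10), and the difference was 2.20 without replicate 2. Olfactory progenitors had 5.68, 22.1, 27.0 and 6.41 CPM, higher than mesenchyme by 1.64 ± 0.43 (adjusted p = 0.0013), or by 1.59 (adjusted p = 0.072) with 1 more marker. They lay above olfactory neurons by 1.87 ± 0.66 (adjusted p = 0.02), which was 1.15 (adjusted p = 0.22) without replicate 2, 1.73 (adjusted p = 0.13) without replicate 4 and 2.86 without replicate 1. Basal epithelium was higher by 0.80 ± 0.34 (adjusted p = 0.047), a call lost without replicate 2 (0.58, adjusted p = 0.26), without replicate 4 (0.062) and without replicate 5 (0.08). Sustentacular cells were lower, at −1.91 ± 0.78 (adjusted p = 0.041), a call lost without any 1 of the 4 captures, and at −1.17 (adjusted p = 0.31) without replicate 1. Simple epithelium (−0.04), olfactory neurons (−0.23), glia (−0.49) and cartilage (−0.66) did not differ from mesenchyme beyond the threshold, with adjusted p of 0.95, 0.78, 0.65 and 0.19. Macrophages held 1 Unc5b UMI over the 4 captures.

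Unc5c (ENSMUSG00000059921, chr3:141465216-141834924, plus strand) was highest in cartilage. Cartilage had 76.7, 686.1, 775.4 and 769.1 CPM (576.9 ± 335.9, mean ± SD, n = 4), mesenchyme 18.6, 202.5, 259.8 and 247.4 CPM and bone 15.4, 132.5, 193.1 and 210.1 CPM. Cartilage was first of the 12 classes in every capture, and replicate 1 was the lowest capture in all 3 classes. Within a capture cartilage stood at 4.13, 3.39, 2.98 and 3.11 times mesenchyme, so the ratio was close over captures whose levels differed widely. The difference was 1.79 ± 0.21 (adjusted p = 7.7e-09). Bone did not differ from mesenchyme beyond the threshold (−0.30 ± 0.22, adjusted p = 0.35). Thinned to 2000 UMIs, 12.9%, 64.3%, 68.5% and 62.2% of cartilage cells kept an Unc5c UMI (48.7%, 85.7%, 88.8% and 91.1% unthinned; 12, 98, 12 and 0 cells were too shallow to thin), and of macrophages 2 of 224 did (9 of 248 unthinned).

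Pericytes had 9.91, 117.7, 149.3 and 62.3 CPM of Unc5c, a difference of −1.20 ± 0.28 from mesenchyme (adjusted p = 0.0014), which DESeq2 gave as −1.04 (adjusted p = 0.092). They lay above endothelium in every capture, and the endothelial difference from pericytes was −3.47 ± 0.52 (adjusted p = 7e-07), or −2.69 without replicate 2 and −5.25 without replicate 5. The remaining classes lay between −3.52 ± 0.27 (basal epithelium) and −4.98 ± 0.45 (glia, −6.52 without replicate 2) against mesenchyme. Endothelium was at −4.68 ± 0.42, with −3.93 without replicate 2 and −6.11 without replicate 5. Sustentacular cells were at −4.78 ± 0.40 (−5.44 without replicate 2) and progenitors at −4.94 ± 0.42 (−5.76 without replicate 2).

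Unc5d (ENSMUSG00000063626, chr8:28646717-29219636, minus strand) was counted mainly in bone and mesenchyme. Bone had 2.81, 101.0, 107.3 and 154.3 CPM (91.4 ± 63.7, mean ± SD, n = 4) and mesenchyme 3.70, 73.2, 80.8 and 150.6 CPM. The bone and mesenchyme ranges overlapped, and the difference of 0.29 ± 0.23 missed the threshold (adjusted p = 0.40). Cartilage, with 1.06, 14.3, 22.9 and 31.4 CPM, lay below mesenchyme in every capture, with a difference of −2.08 ± 0.25 (adjusted p = 1.7e-08), or −2.72 with 1 more marker. Cartilage thus had the highest Unc5c and a low Unc5d, whereas bone differed from mesenchyme beyond the threshold in neither. Thinned, 0.284%, 14.3%, 16% and 18.3% of bone cells kept an Unc5d UMI (3.98%, 37.3%, 32.8% and 43.8% unthinned), and of macrophages 2 of 224 did (4 of 248 unthinned).

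No Unc5d UMI was counted in endothelium or in olfactory progenitors of the 4 WT captures. At the mesenchymal level of each capture, 157.0 UMIs would have been counted in endothelium and 170.0 in progenitors. With a floor of 3 counts over the 4 captures, endothelium was thus at least 52.4-fold and progenitors at least 56.7-fold lower than mesenchyme. Pericytes held 2 UMIs, both in replicate 5. Olfactory neurons had 0.96, 22.2, 2.62 and 6.69 CPM, a difference from mesenchyme of −3.12 ± 0.43 (adjusted p = 8.5e-08), which was −4.51 without replicate 2 and −2.44 without replicate 4. Basal epithelium lay at −3.58 ± 0.31, simple epithelium at −3.66 ± 0.34 and sustentacular cells at −3.76 ± 0.44 (−4.62 without replicate 5). Macrophages lay at −4.30 ± 0.51 (−3.35 without replicate 5) and glia at −5.08 ± 0.58.

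Unc5a (ENSMUSG00000025876, chr13:54949411-55006018, plus strand), best known from neurons, was barely counted. WT replicates 1, 2, 4 and 5 held 9, 8, 7 and 5 Unc5a UMIs in all, or 0.125 ± 0.0168 CPM (mean ± SD, n = 4). Basal epithelium held 8 of the 29, with 1, 2, 3 and 2 in the 4 captures. A further 4 lay in mesenchyme, 3 in cartilage, 2 in simple epithelium and 1 in progenitors, and the 7 other tested classes, olfactory neurons among them, held 0. Of the classes not tested, the other neurons of replicate 1, its muscle cells and the terminal nerve cell of replicate 2 held 1 each, and the rest lay in cells of no class. These counts were too few for a test.

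Read against the mean of the other 11 classes, 4 of the genes could be tested. Ntn1 and Unc5d could not be, since macrophages held 0 UMIs of Ntn1, and endothelium and progenitors 0 of Unc5d, and a log mean over such classes has no finite value. This reference is a mean of logs, which classes with few UMIs pull down, so its values are not to be read against those for mesenchyme. Dcc in olfactory neurons had a value of 5.35 ± 0.21 (adjusted p = 1.1e-25), Unc5c in cartilage 5.16 and Unc5b in endothelium 3.82. In bone and in pericytes all 4 genes were higher, beside 38.6% and 24.1% of all genes called, and in macrophages all 4 were lower, beside 51.8%. In mesenchyme 3 of 4 were higher (47.3% of all genes), and in endothelium 1 was higher and 3 lower (41.5%). Cartilage and progenitors each had 2 higher and 1 lower (47.6% and 37.2%), olfactory neurons 1 and 1 (54.9%), basal epithelium 1 and 0 (35.3%) and sustentacular cells 0 and 3 (32%). Glia and simple epithelium had 0 higher and 1 lower (23.6% and 34.5%), in both cases Unc5c.

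Of the pairs of neighbouring classes tested, progenitors against olfactory neurons had 2 netrin genes higher (Ntn1 and Unc5b) and 2 lower (Dcc and Unc5d), beside 41.3% of all genes called. The call for Unc5d, at 0 in progenitors, was lost without replicate 2 (adjusted p = 0.17), and that for Dcc turned with the gate as given above. Basal against simple epithelium had 1 call, the lower Ntn1 (17% of all genes), and Neo1 missed the threshold there (0.41 ± 0.16, adjusted p = 0.078) but passed without replicate 1 (adjusted p = 0.0076). Endothelium against pericytes had Unc5b higher and Unc5c, Neo1 and Dcc lower (29.4%). The fitted Dcc difference there rested on 1 endothelial UMI and is given no fold.

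Mesenchyme was then divided into 7 subsets of cells that showed both genes of a pair, such as Pax9 and Mecom, and each subset was set against the mean of the others. Of the netrin genes 5 of 7 passed the filter on low counts, Unc5a and Unc5b not, among 10199 genes tested. Foxp2/Erg cells had 3 of 5 higher (19.2% of all genes called), Pax9/Mecom cells 2 higher and 1 lower (9.96%) and Osr1/Mab21l2 cells 1 and 1 (6.89%). Twist2/Dpt cells also had 1 and 1 (5.95%), Sox2/Sox18 cells 2 lower (7.64%), Aldh1a2/Cldn11 cells 1 lower (13.2%) and Shox2/Barx1 cells 1 higher (2.09%).

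Ntn1 was highest in mesenchyme that showed Twist2 and Dpt, genes of loose connective tissue and dermis. These cells had 17.0, 24.5, 97.3 and 65.5 CPM (51.1 ± 37.5, mean ± SD, n = 4). The values rest on 6, 5, 11 and 35 UMIs in 29, 34, 17 and 37 cells. Sox2/Sox18 cells had 10.6, 33.2 and 39.1 CPM in replicates 2, 4 and 5, from 1, 4 and 8 UMIs. Osr1/Mab21l2 cells had 11.01, 21.9, 9.3 and 26.1 CPM. In replicates 1 and 2 the Poisson intervals of Twist2/Dpt cells, 6.25 to 37.1 and 7.94 to 57.1 CPM, held the Osr1/Mab21l2 values. In replicates 4 and 5 they were 48.55 to 174.0 and 45.6 to 91.1 CPM, above the Osr1/Mab21l2 and Sox2/Sox18 values. Twist2/Dpt cells were above the mean of the others by 2.30 ± 0.31 in log2 (adjusted p = 4.4e-06). Aldh1a2/Cldn11 cells, with the meningeal genes for retinaldehyde dehydrogenase and claudin-11, had 2.46, 6.51, 2.93 and 6.04 CPM and lay at −1.49 ± 0.35 (adjusted p = 0.0031; −1.36 and 0.068 without replicate 5). Pax9/Mecom cells lay at −1.08 ± 0.34 (adjusted p = 0.037), a call lost without replicate 1 (0.12), replicate 2 (0.11) or replicate 5 (0.18). Osr1/Mab21l2 cells passed without replicate 4 (0.90, adjusted p = 0.033) but not with it (0.59, adjusted p = 0.14).

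Unc5c and Unc5d had their highest mean level in the same mesenchymal subset. In Pax9/Mecom cells Unc5c stood at 32.0, 359.5, 461.8 and 452.1 CPM, 1.62 ± 0.15 above the mean of the others (adjusted p = 3e-09), and Unc5d at 8.0, 203.4, 271.1 and 788.5 CPM, 2.44 ± 0.23 above (adjusted p = 4.3e-09). In Osr1/Mab21l2 cells they parted: Unc5c was higher (0.96 ± 0.15, adjusted p = 9.9e-05) and Unc5d lower (−1.22 ± 0.31, adjusted p = 0.014). The Unc5d call there was lost without replicate 2 (adjusted p = 0.062) and without replicate 5 (−0.31, adjusted p = 0.80), and DESeq2 gave −0.90 (adjusted p = 0.32). Unc5c was lowest in Twist2/Dpt cells, at 5.68, 19.6, 8.84 and 22.5 CPM, and lay at −3.21 ± 0.34 (adjusted p = 5.9e-08). Twist2/Dpt cells thus held the highest Ntn1 and the lowest Unc5c of the subsets. For Unc5d in Twist2/Dpt cells the value of −1.63 ± 0.50 did not pass the threshold (adjusted p = 0.05), and was −4.73 (adjusted p = 0.0019) without replicate 5, which held 61.8 CPM against 0, 4.89 and 0 in the others. Unc5c was also higher in Foxp2/Erg cells (1.31 ± 0.15, adjusted p = 1.6e-07) and lower in Sox2/Sox18 cells (−1.09 ± 0.32, adjusted p = 0.032), a call lost without replicate 4 (0.15) or replicate 5 (0.20).

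Dcc was called in 3 subsets. Shox2/Barx1 cells had 5.96, 81.0, 237.7 and 200.7 CPM and lay at 1.24 ± 0.24 (adjusted p = 0.0032), which was 0.77 (adjusted p = 0.10) without replicate 4. Foxp2/Erg cells lay at 0.69 ± 0.22 (adjusted p = 0.026), a call lost without replicate 2 (0.069) and without replicate 5 (0.24). Sox2/Sox18 cells, absent from replicate 1, had 0, 8.29 and 24.4 CPM in replicates 2, 4 and 5. These values rest on 0, 1 and 5 UMIs in 17, 18 and 16 cells, and the 0 allows up to 31.9 CPM. Their fitted difference was −3.27 ± 0.63 (adjusted p = 0.00055), or −4.31 without replicate 5, where 1 UMI was left. Neo1 was called in a single subset: Foxp2/Erg cells had 72.9, 191.8, 214.6 and 226.2 CPM, the highest of the subsets in every capture, and lay 0.73 ± 0.10 above the mean of the others (adjusted p = 6.1e-06).

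**Figure D4:**
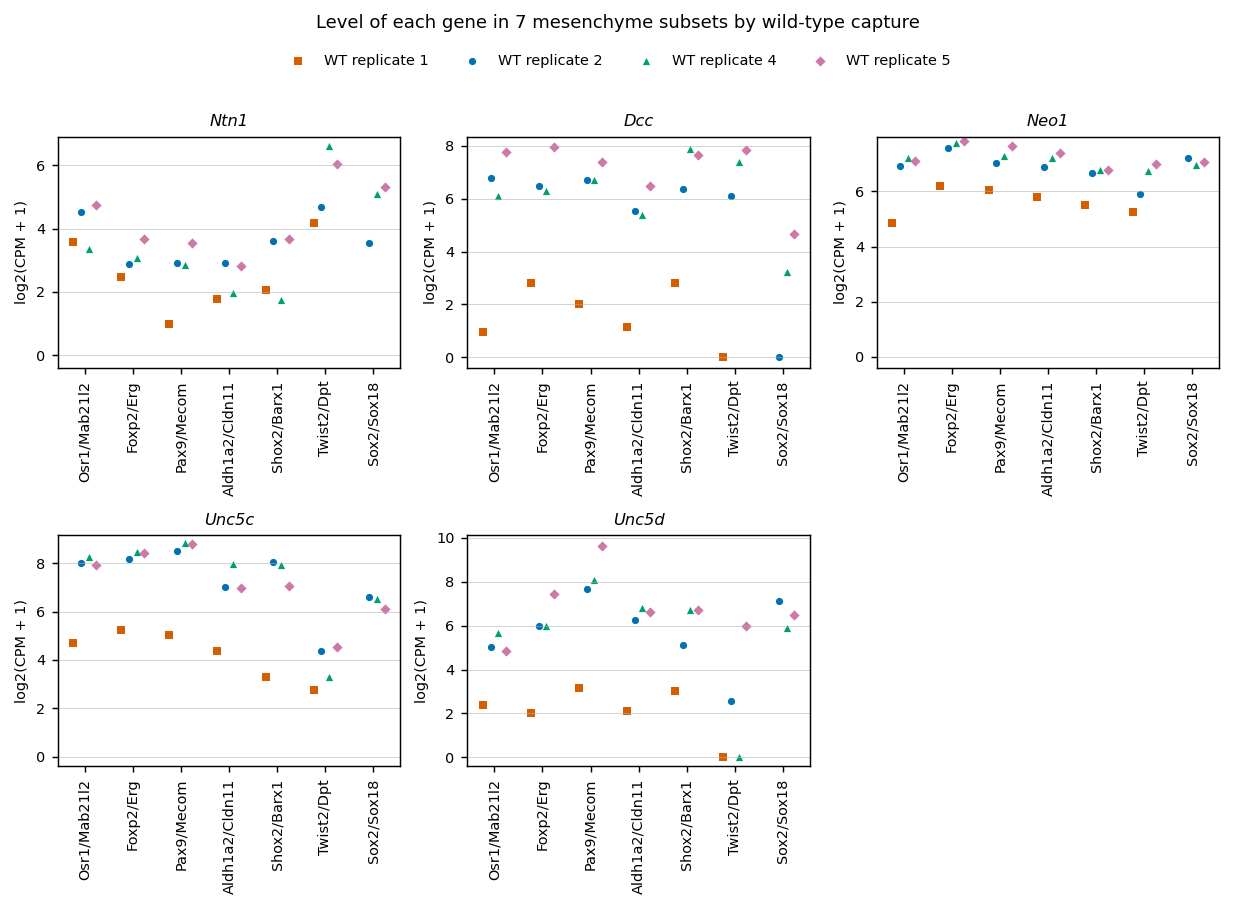
Level of Ntn1, Dcc, Neo1, Unc5c and Unc5d as log2(CPM + 1) in 7 subsets of mesenchyme named by their gate genes, with 1 point per WT capture. Twist2/Dpt cells stand highest for Ntn1 (17.0 to 97.3 CPM) and lowest for Unc5c (5.68 to 22.5 CPM), and Pax9/Mecom cells highest for Unc5d (8.0 to 788.5 CPM).

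Other genes of the netrin family and of netrin and Unc5 signalling were read from a list of 38, of which 31 passed the filter in the class fit. In olfactory neurons, where Dcc was high, 9 were higher and 13 lower than in mesenchyme (list median −0.21, all genes −0.17), so that 71.0% of the list and 57.9% of all genes were called. Dscam, a further netrin receptor, was higher by 7.08, and the Unc5-binding Gpc3 (−5.08) and Flrt2 (−4.59) were lower. Ntng1, also called lower, had 2 UMIs in these neurons over the 4 captures. Progenitors against olfactory neurons had 3 higher and 13 lower (list median −0.43, all genes −0.01), among the lower Flrt1 (−6.25 ± 0.57, adjusted p = 9e-12), Dscam (−4.80), Ablim1 (−3.58) and Rgmb (−2.63); 51.6% of the list and 41.3% of all genes were called. In sustentacular cells, where Ntn1 was high, 6 were higher and 17 lower than in mesenchyme (list median −0.63, all genes −0.18), with Dscam at 4.32 and Flrt2 at −4.07, and 74.2% of the list was called beside 47.4% of all genes. Basal against simple epithelium had 8 higher and 1 lower (medians 0.12 and 0.01; 29.0% of the list and 17% of all genes called). Ntn4 (3.47) and Ntng1 (2.17) were among those higher in basal epithelium.

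In each skeletal and vascular class set against mesenchyme more genes were called lower than higher, in the list and over all genes alike. Over all genes 1190 were higher and 1796 lower in bone, 1280 and 1693 in cartilage, 2263 and 3777 in endothelium, and 919 and 1848 in pericytes. In the list, bone against mesenchyme had 1 higher and 15 lower (list median −0.65, all genes −0.09; 51.6% of the list and 23.7% of all genes called), led by Cdon (−2.36) and Boc (−1.76), receptors that can bind netrin, and by Rgma (−2.13), a ligand of neogenin. Cartilage against mesenchyme had 3 higher and 8 lower (medians −0.07 and −0.04; 35.5% and 23.6% called), with Ntn4 at −1.11 and the Unc5-binding Flrt3 at −1.06 and Flrt1 at −1.01. Endothelium against mesenchyme had 9 higher and 16 lower (medians −0.94 and −0.25; 80.6% and 48% called), and pericytes 5 and 14 (−0.62 and −0.24; 61.3% and 22%). Endothelium against pericytes had 9 in each direction (medians −0.43 and −0.01; 58.1% and 29.4% called), with Gpc3 at −6.19 and Adgrl3 at −4.79. Macrophages against mesenchyme had 5 higher and 23 lower (medians −1.37 and −0.31; 90.3% and 59.2% called). Against the mean of the other classes the split differed, with 13 higher and 7 lower in bone (list median 0.01, all genes 0.08; 64.5% and 38.6% called), 17 and 4 in cartilage (0.45 and 0.13; 67.7% and 47.6%) and 10 and 4 in pericytes (0.19 and −0.07; 45.2% and 24.1%).

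Among the mesenchyme subsets, where 30 of the 38 were tested, calls were few; medians and shares called follow for the list and then for all genes. Pax9/Mecom cells, the subset high in Unc5c and Unc5d, had 2 higher and 3 lower (medians −0.07 and 0.03; 16.7% and 9.96%), with Flrt2, which codes for an Unc5 ligand, at 1.45 and Rgmb at −1.25. Twist2/Dpt cells, high in Ntn1, had 2 higher and 3 lower (medians 0.10 and 0.00; 16.7% and 5.95%), with Cdon at 2.10, Ntng1 at −1.41 and Flrt2 at −1.17. Foxp2/Erg cells had 6 higher and 1 lower (medians 0.15 and 0.03; 23.3% and 19.2%, a share near that of all genes), with Cdon (0.68), Boc (0.67) and Ntng1 (0.69) among the higher. Sox2/Sox18 cells had 2 higher and 5 lower (medians −0.31 and −0.05; 23.3% and 7.64%), with Draxin, an antagonist of netrin signalling, at 4.27 and Cdon at −3.05. Osr1/Mab21l2 cells had 2 in each direction (medians −0.03 and 0.04; 13.3% and 6.89%), Aldh1a2/Cldn11 cells 4 higher and 1 lower (0.15 and 0.02; 16.7% and 13.2%, again near that of all genes) and Shox2/Barx1 cells 1 higher (0.03 and 0.03; 3.33% and 2.09%).

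For each netrin gene up to 3 genes whose mean level over the 12 classes was most alike were found by Pearson's r of log2(CPM + 1), as a description over 12 classes that share captures and depth. The values lay closest for Neo1 (Zfhx4, r = 0.978; Trim44, 0.975; Casc4, 0.97) and Unc5c (Gdf10, 0.973; Islr, 0.97; Nrk, 0.962). Ntn1 was nearest to Frat2 (0.948), Tyro3 (0.947) and Cenpb (0.946), and Dcc to 1500015A07Rik (0.924), B630019K06Rik (0.921) and Hist1h4c (0.911). Among the genes near Unc5b were Grrp1 (0.885) and Dcun1d5 (0.846), and Unc5d was nearest to Tmem132c (0.884), Thsd4 (0.883) and 2310039H08Rik (0.881). Between netrin genes themselves the highest values were 0.659 for Unc5c with Unc5d, 0.622 for Neo1 with Unc5c and 0.619 for Neo1 with Unc5d.

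The ProKR2iCre libraries, with 1789 and 1111 kept cells, were described singly, with no test. The 7 sustentacular cells of library 1 had 26.7 CPM of Ntn1 and its mesenchyme 5.79, and the 3 of library 2 had 75.5 against 20.2. Cartilage stood at 3.17 times mesenchyme for Unc5c in library 2 and 2.14 times in library 1, and bone had 52.1 and 78.8 CPM of Unc5b against 7.57 and 22.7 in mesenchyme of libraries 1 and 2. These 3 pairs of class and gene thus stood above mesenchyme in both libraries, as they did in the WT captures. For Unc5c the libraries differed in bone, which stood at 0.93 times mesenchyme in library 1 (95% interval 0.711 to 1.198) and 2.11 times in library 2 (1.97 to 2.25). For Unc5d bone stood at 1.71 (1.16 to 2.44) and 1.97 times (1.82 to 2.13). The intervals cover counting error only, and the WT difference passed the threshold for neither gene.

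Some levels in library 2 did not follow those of the WT captures. Its 122 Sox2/Sox18 cells had 113.0 CPM of Dcc (164 UMIs) against 73.1 in all its mesenchyme. Such cells were low in Dcc in WT, from 0, 1 and 5 UMIs in replicates 2, 4 and 5. The 26 Shox2/Barx1 cells of library 2 held 0 Dcc UMIs of 399303, which allows up to 7.51 CPM. Over the WT captures Shox2/Barx1 cells ranged from 5.96 to 237.7 CPM. Sox2/Sox18 cells also stood above Foxp2/Erg cells for Neo1 in library 2, at 277.8 against 187.0 CPM. In library 1 they stood below, at 62.6 (30 UMIs) against 153.3 CPM (50 UMIs), and Foxp2/Erg cells were first in each WT capture. For Dcc, library 1 held 4 UMIs in Sox2/Sox18 and 2 in Shox2/Barx1 cells. Glia stood at 0.76 times mesenchyme for Dcc in library 2 (95% interval 0.563 to 1.008, 53 UMIs in glia) and at 0.561 times in library 1 (0.014 to 3.212, 1 UMI), beside 0.0117 to 0.263 times in the WT captures, from 1 to 3 UMIs each.

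Library 2 held 20 cells of the terminal nerve class, gated on genes such as Gnrh1, Isl1 and Prph, against 130 olfactory neurons. Terminal nerve cells stood at 1221 CPM for Dcc (677 UMIs) and olfactory neurons at 324.9 (781 UMIs), a ratio of 3.76 that became 7.31 with 1 more marker. Of the cells that passed the terminal nerve gate, 14 were at its minimum of 4 markers and 10 above it. Unc5d was at 223.6 CPM in terminal nerve cells and 31.6 in olfactory neurons, 7.07 times as high (95% interval of the ratio 5.27 to 9.54, counting error only). For Unc5c the ratio was 2.37 (0.718 to 6.98), for Neo1 1.27 (0.796 to 1.97) and for Unc5b 0.826 (0.206 to 2.45), and each of these intervals holds 1. Of the WT captures, replicate 1 had the most terminal nerve cells, 7, with 0 Dcc UMIs of 128799 (which allows up to 23.3 CPM), while its olfactory neurons stood at 3.86 CPM. Replicate 4 had 1 such cell, with 74 Dcc UMIs, and replicate 2 had 1 with 3. Unc5a had 12 UMIs in library 2. Mesenchyme held 4 of these, glia 3, terminal nerve cells 2, olfactory neurons 2 and simple epithelium 1.

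**Figure D5:**
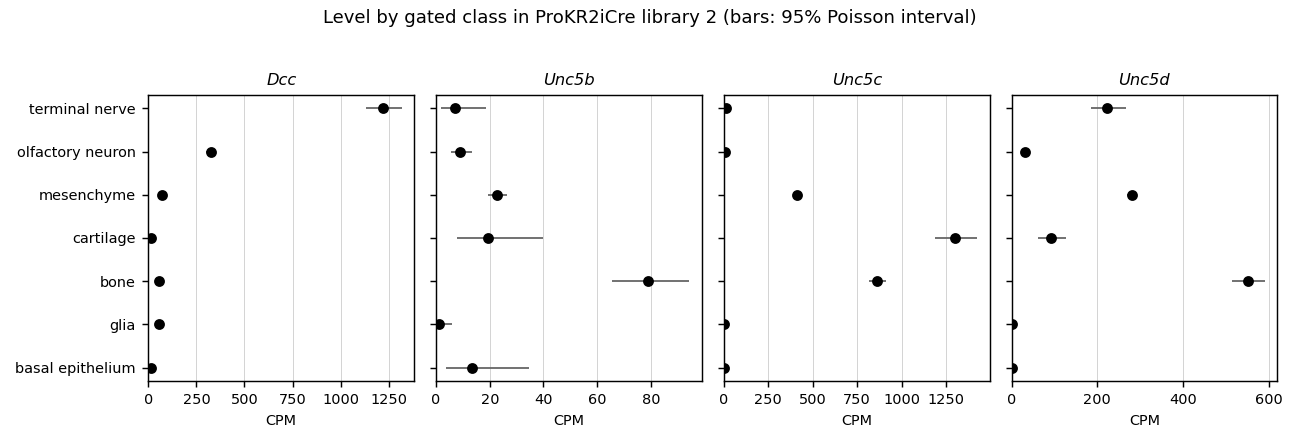
CPM of Dcc, Unc5b, Unc5c and Unc5d in the cell classes of ProKR2iCre library 2, with exact 95% Poisson intervals that cover counting error only. Terminal nerve cells (20 cells) stand highest for Dcc at 1221 CPM, cartilage highest for Unc5c at 1301 CPM, and Unc5d is at 551.2 CPM in bone and 223.6 CPM in terminal nerve cells.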

How the data were processed

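The deposited files hold raw UMI counts per gene and cell barcode, made by the authors with Cell Ranger 6.0.1, 7.0.0 and 6.1.2, per the file headers; the submitters' processing notes name Cell Ranger 4, Seurat 4.3.0 and mm10. Whether intronic reads were counted is not given in the sources used here. Intron lengths and coordinates came from GENCODE M21, which matched 29702 genes by symbol or identifier. The members and lists were chosen with earlier results of these data known; all members are named, and of the pathway list at most 5 called genes a comparison, by size of change. Gates asked for 2 to 5 detected markers, a threshold set after marker counts were seen. Non-skeletal cells with at least 4 mesenchyme markers were left out as mixed. Barcodes under 500 detected genes or over 10% mitochondrial UMIs were dropped, WT replicate 3 was not used, and UMIs were summed per capture and class with at least 10 cells in at least 3 captures. Sums were tested with edgeR 4.0.16 in R 4.3.3 (TMM, filterByExpr, quasi-likelihood, checked on simulated data), with the capture as a block because the classes of a capture come from the same suspension, and with DESeq2 1.42.0 as an alternative. The comparisons against mesenchyme were added after the data were seen. Scrublet (scanpy 1.11.5) marked at most 0.416% of cells, under the 0.5% taken as working, so doublets were kept in the main analysis and the highest scores removed, at 0.8% per 1000 cells, as an alternative. Intervals are exact (95%), and floors are 3 counts. A gene found among those most like Unc5b is not reported here.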

Additional observations from a re-analysis of the deposited data

Results flagged for a closer look

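Each of 92 sets of 4 WT values was examined for a capture far from the others by Dixon's criterion, which chance meets in about 1 set in 20, and 5 met it. Dcc in pericytes was 102 CPM in replicate 5, from 31 UMIs in 4 of 13 cells, against 3.81 to 9.33 CPM in the other captures. Unc5c in cartilage was 76.7 CPM in replicate 1 against 686 to 775 CPM, and replicate 1 was also lowest for Unc5c in mesenchyme. Unc5c in endothelium was 28.7 CPM in replicate 5, from 11 UMIs in 4 of 18 cells, against 0 to 2.2 CPM. The ratio of Unc5c in pericytes to that in mesenchyme was 0.252 in replicate 5 against 0.533 to 0.581. Unc5d in sustentacular cells was 39.5 CPM in replicate 5, from 8 UMIs in 2 of 14 cells, against 0.617 to 3.51 CPM.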

How the results depend on the processing

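The class with the highest level was the same for 6 of 6 tested netrin genes with stricter cell filters, with likely doublets removed and with each replicate left out. With 1 more marker this held for the genes other than Ntn1, whose class could not be tested there. Calls over the netrin genes numbered 33 of 48 against the mean of other classes, 16 of 30 between pairs, 14 of 35 between mesenchyme subsets and 49 of 54 in the 9 comparisons with mesenchyme other than those of cartilage and bone, which count as pairs. With each replicate left out in turn they ranged from 28 to 31, 14 to 17, 10 to 14 and 45 to 47. The pairing comes from the design, since the classes of a capture share a suspension; without the replicate block the counts were 18, 8, 4 and 40, and over all genes 686 to 3463 were called between pairs (2140 to 5203 with it), 1886 to 5479 between classes (2975 to 6913), 24 to 393 between subsets (213 to 1962) and 1060 to 5513 against mesenchyme (2767 to 7450). The results that reversed concerned Dcc in progenitors: with 1 more marker it was 0.31 (adjusted p = 0.51) against olfactory neurons and 1.89 (4.6e-07) against mesenchyme, and against mesenchyme it ranged from −1.00 (without replicate 2) to 0.05 (without replicate 5, adjusted p = 0.93); the cause was not tested. With 1 more marker, values of ProKR2iCre library 2 moved to 7.31 for Dcc in terminal nerve cells over olfactory neurons (from 3.76), 2.34 for Unc5c in cartilage over mesenchyme, and 1.41 and 2.40 for Unc5d and Unc5c in bone over mesenchyme; that gate left no sustentacular class to test. The pair of other neurons with olfactory neurons was not run, since 1 capture alone had 10 of the former.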
